A study of Mus musculus with 24 samples.

Results

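The genes described here are 10 genes of mouse muscle cell cultures that had been selected on small unadjusted p-values for maternal diet in an earlier analysis of the same arrays: Cdsn, Lmo7, Grhpr, Sytl2, Sipa1l2, Pbx3, Lmo4, Tppp3, Slc22a23 and Ep400. They were found among the 22180 genes tested as transcript clusters, sets of array probes assigned to a locus, whose only gene symbol was one of these names. The 10 genes had 11 such clusters, because Ep400 had 2, and the cluster with the highest mean was used for each gene. On all arrays and without array weights, none of the maternal diet differences passed adjustment for multiple testing. Since these differences chose the genes, they are given below as a description without a test. Adjusted p-values printed for some of them describe the fit only.

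The RNA came from cells isolated from the quadriceps of ICR mice, expanded on Matrigel and differentiated into muscle cells, with 1 array for each of 24 samples. Control dams ate chow freely throughout, and undernourished dams received 50% of the control ration from gestation day 12.5 until delivery, after which both had free access to food and litters were made equal in size. Control and undernourished cultures were differentiated in a standard medium with 5.5 mM glucose and 2% fetal bovine serum, or were kept overnight in a limited medium with 1% serum, whose substrates were glucose at 0.5 mM, glutamine at 1 mM and carnitine at 0.5 mM. The 4 groups had 6 arrays each, and each of 12 culture numbers had 1 array per medium. The labels do not say whether a culture number is an animal, a litter or a flask, nor do they give the age or sex of the offspring, so the p-values reflect variation among the samples as they stand, which can be technical in part.

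Offspring of mothers undernourished in pregnancy are used to study how early life shapes later muscle and metabolism. The 10 genes belong to no single pathway. Lmo4, Pbx3 and Ep400 act on transcription and chromatin, Lmo7, Cdsn and Tppp3 on cell contacts and the cytoskeleton, Sipa1l2 and Sytl2 on small GTPases, and Grhpr and Slc22a23 on metabolism and transport.

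The cultures carried muscle transcripts: the mean of 15 myotube markers lay between 11.75 and 12.05 (log2 signal) in every culture. Cultures 16, 20 and 24 differed from the others in markers of other cells. The mean of 9 fibroblast markers was high in control culture 16 (7.44), undernourished culture 20 (7.33) and control culture 24 (6.41), against 5.66 to 6.01 in the other 9 cultures. The mean of 7 glial markers reached 8.01 in culture 20, with 6.76 for culture 16 and 6.70 for culture 24, and at most 6.23 elsewhere. Differences without these 3 cultures are also given for each gene. In bulk RNA, fewer cells of a type and less RNA per cell cannot be told apart.

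Promoter windows are shown for the 2 genes that passed the test of the medium, Lmo7 and Lmo4, for Cdsn, the gene with the smallest p for maternal diet in limited medium, and for Sipa1l2, whose window holds a repeated motif. The first-listed window of a gene is shown, except for Cdsn, where the one with more E-boxes was picked after the motifs had been counted. Each window runs from 250 bases before to 50 bases after a gene start, from RefSeq on GRCm38.p6, and is written 5′ to 3′ on the gene's strand. RefSeq windows were matched for 7 of the 10 genes, 12 windows in all, and Sytl2, Pbx3 and Tppp3 were not matched. Capitals mark E-boxes (CANNTG, the motif bound by basic helix-loop-helix factors such as MyoD, read the same on both strands) in the first 3 and CCAAT boxes in the Sipa1l2 window.
Lmo7, chr14:101729678-101729977, plus strand: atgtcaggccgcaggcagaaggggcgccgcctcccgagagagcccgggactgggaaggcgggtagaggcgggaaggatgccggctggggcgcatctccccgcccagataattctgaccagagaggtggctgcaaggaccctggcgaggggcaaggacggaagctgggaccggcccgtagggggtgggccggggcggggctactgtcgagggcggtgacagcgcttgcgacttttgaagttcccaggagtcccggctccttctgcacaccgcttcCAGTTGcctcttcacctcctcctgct
Lmo4, chr3:144205206-144205505, minus strand: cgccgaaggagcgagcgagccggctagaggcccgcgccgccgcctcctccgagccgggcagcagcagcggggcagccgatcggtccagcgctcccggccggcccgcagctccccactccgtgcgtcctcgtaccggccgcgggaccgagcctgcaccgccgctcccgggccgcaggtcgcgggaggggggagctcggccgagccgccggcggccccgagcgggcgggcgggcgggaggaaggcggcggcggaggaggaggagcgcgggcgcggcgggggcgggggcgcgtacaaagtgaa
Cdsn, chr17:35551878-35552177, plus strand: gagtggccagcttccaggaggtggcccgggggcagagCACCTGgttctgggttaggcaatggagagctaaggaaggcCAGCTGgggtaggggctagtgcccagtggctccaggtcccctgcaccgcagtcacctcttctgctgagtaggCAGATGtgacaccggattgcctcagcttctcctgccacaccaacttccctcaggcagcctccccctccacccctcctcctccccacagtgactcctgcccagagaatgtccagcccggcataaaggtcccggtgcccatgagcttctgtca
Sipa1l2, chr8:125569814-125570113, minus strand: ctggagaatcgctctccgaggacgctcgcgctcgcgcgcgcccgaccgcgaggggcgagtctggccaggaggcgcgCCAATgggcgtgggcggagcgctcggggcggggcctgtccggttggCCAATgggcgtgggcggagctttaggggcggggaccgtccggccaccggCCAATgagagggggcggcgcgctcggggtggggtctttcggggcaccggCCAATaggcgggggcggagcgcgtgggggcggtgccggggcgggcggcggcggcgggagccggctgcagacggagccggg
The printed windows hold 1 E-box for Lmo7, 3 for Cdsn and none for Lmo4. In the windows not printed, the second of Lmo7 holds none, the other of Cdsn 1, and both others of Lmo4, which overlap each other, 1. Over the 12 windows, 8 held an E-box, against 72.3% of the 32851 windows of all genes in the table. The Sipa1l2 window holds 4 CCAAT boxes and no E-box, and no other member window holds CCAAT, which 37.4% of all windows hold. No member window held TATAAA, TGATTNAT or TGACGTCA on either strand, which 13.6%, 3.22% and 1.79% of all windows hold. The ratio of observed to expected CpG was above the all-window median of 0.38 in 11 of the 12 windows, and the printed Cdsn window, at 0.17, was the exception. The other Cdsn window had 0.40 and the printed Lmo4 window 1.06. GC content was 81.3% in the printed Lmo4 window and 63.0% and 53.7% in the Cdsn windows, against a median of 52.7%. These matches describe letters in a window and are no evidence of binding.

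Of the genes, 4 lay higher and 6 lower in undernourished than in control cultures. In culture means, Cdsn, Sytl2, Lmo4 and Slc22a23 were higher, and Lmo7, Grhpr, Sipa1l2, Pbx3, Tppp3 and Ep400 lower. For all 10 genes the difference between maternal diets was larger in limited than in standard medium, and for 9 it had the same direction in both. Nothing is read from this pattern, because the contrasts that chose the genes can favour it. Limma called 0 of 22180 genes, 0%, at an adjusted p under 0.05 in standard medium, in limited medium and over culture means. At an unadjusted p under 0.05 it found 697 genes (3.14%), 1206 genes (5.44%) and 791 genes (3.57%). Of the 10 genes, 2 were under that unadjusted level in standard medium, 10 in limited medium and 10 over culture means, counts that the choice of the genes fixes in large part. The control and undernourished groups did not overlap for 2 of the 10 genes in limited medium, for 2 over culture means and for none in standard medium. Among all genes this held for 0.207%, 0.162% and 0.153%, and nothing is read from the comparison, because the same contrasts chose the genes.

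**Figure D1:**
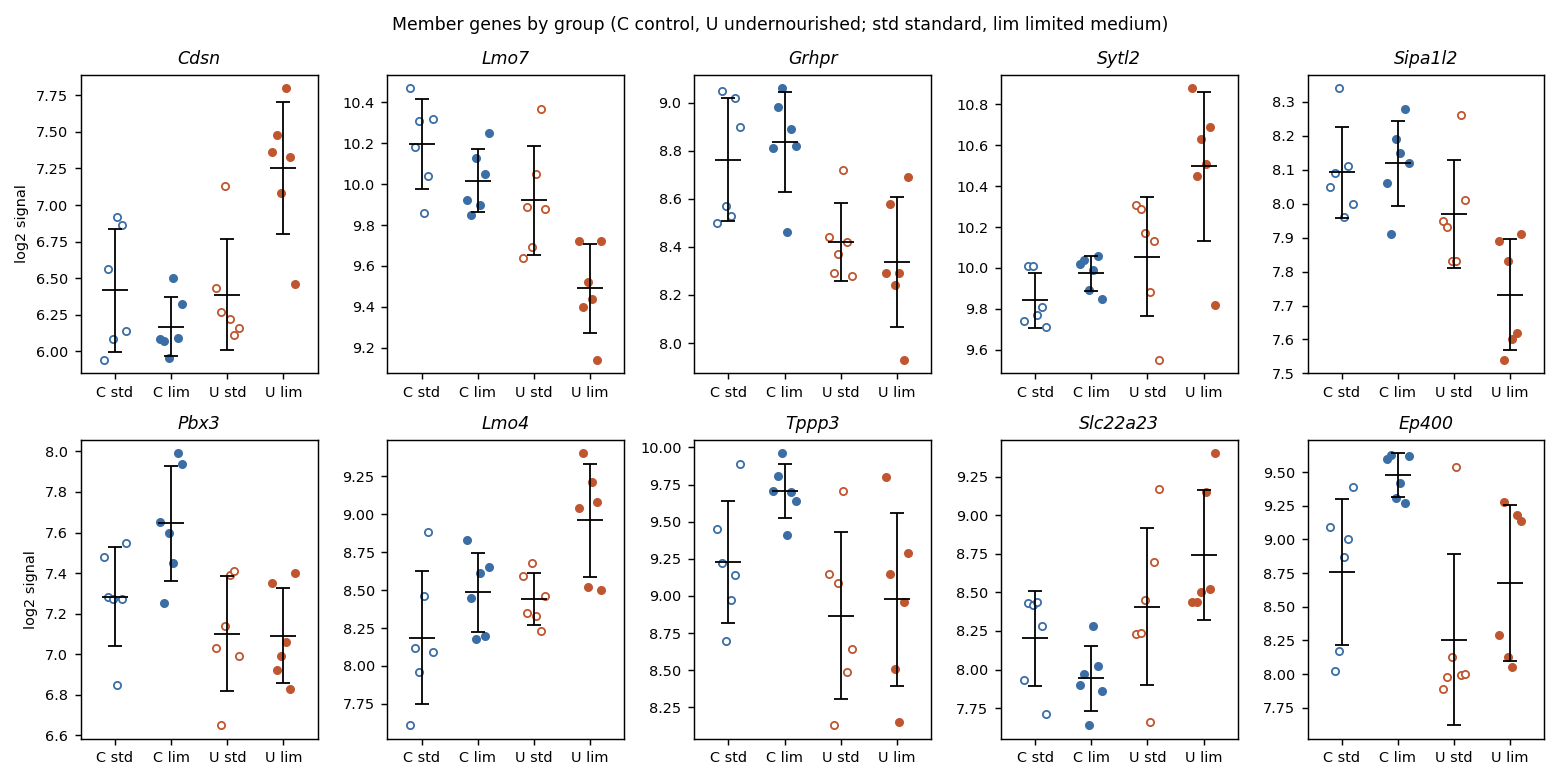
Log2 signal of each gene (vertical axes, not starting at 0) on the 24 arrays in 4 groups of 6, blue for control and orange for undernourished, open for standard and filled for limited medium, with the mean and SD in black. In limited medium the control and undernourished arrays of Lmo7 and Slc22a23 do not overlap.

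**Figure D2:**
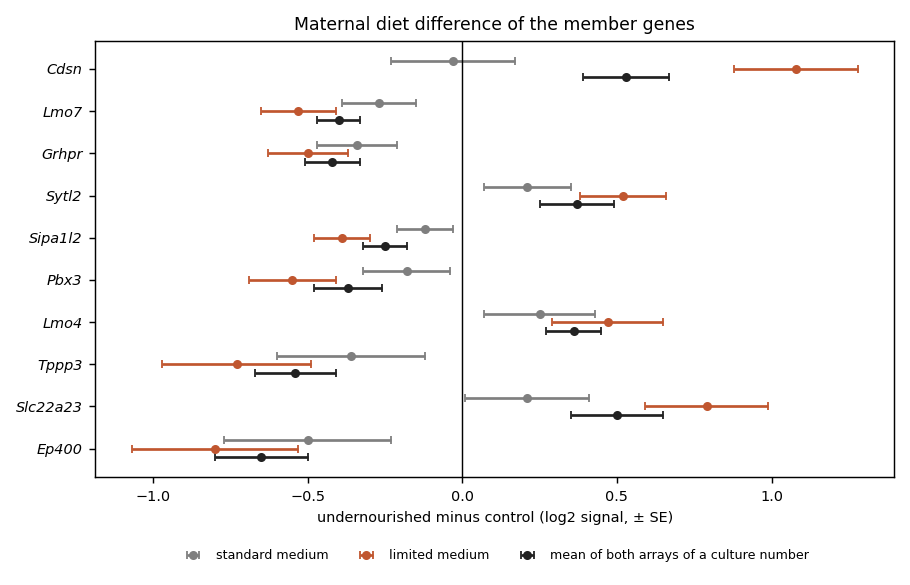
Difference in log2 signal, undernourished minus control, with SE, for each gene in standard medium, in limited medium and over the means of both arrays of a culture number. The limited-medium point lies farther from 0 than the standard-medium point for all 10 genes, from -0.80 for Ep400 to 1.08 for Cdsn. The contrasts that chose the genes can favour this pattern, so nothing is read from it.

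Lmo4 encodes an adaptor made of LIM domains that joins transcription factors to the cofactor LDB1. In standard medium its log2 signal ran from 7.61 to 8.88 with a median of 8.10 in control arrays, and from 8.23 to 8.68 with a median of 8.41 in undernourished arrays. In limited medium the control arrays ran from 8.18 to 8.83 (median 8.53) and the undernourished arrays from 8.50 to 9.40 (median 9.06). The groups overlapped in both media. In standard medium all undernourished arrays lay within the control range, and in limited medium those of cultures 20 and 8 did. Undernourished minus control was 0.25 ± 0.18 (SE) in standard and 0.47 ± 0.18 in limited medium, a ratio of 1.39, and 0.36 ± 0.09 over culture means. Leaving out each culture in turn moved the limited-medium difference between 0.39 and 0.57, and without cultures 16, 20 and 24 it was 0.54. In standard medium it was 0.14 without control culture 5, 0.39 without control culture 16 and 0.40 without the 3 cultures.

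Pbx3 encodes a TALE homeodomain protein that binds DNA together with HOX and MEIS proteins. Its control arrays ran from 6.85 to 7.55 (median 7.27) in standard and from 7.25 to 7.99 (median 7.62) in limited medium. Its undernourished arrays ran from 6.65 to 7.41 (median 7.09) and from 6.83 to 7.40 (median 7.03). The lower level of the undernourished arrays in limited medium came with an overlap of the ranges between 7.25 and 7.40, where undernourished cultures 1 and 20 met control culture 10. The difference was -0.18 ± 0.14 in standard medium, -0.55 ± 0.14 in limited medium and -0.37 ± 0.11 over culture means. Without cultures 16, 20 and 24 the differences were -0.09, -0.45 and -0.27, and without undernourished culture 4 the standard-medium difference was likewise -0.09. Culture 16 had the highest Pbx3 signal of all arrays in limited medium, 7.99, and its high fibroblast markers were given above; their part in the result was not tested.

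Ep400 encodes an ATPase of the SWI/SNF-related family that works in the TIP60 complex and exchanges histone variants. On its brighter cluster the control arrays ran from 8.02 to 9.39 (median 8.93) in standard and from 9.27 to 9.63 (median 9.51) in limited medium. Undernourished arrays ran from 7.89 to 9.54 (median 8.00) and from 8.05 to 9.28 (median 8.72). Culture 9 supplied the high value in standard medium, 9.54, while the other 5 undernourished arrays there lay between 7.89 and 8.13. The difference was -0.50 ± 0.27 in standard medium, -0.80 ± 0.27 in limited medium and -0.65 ± 0.15 over culture means, and without culture 9 it was -0.76 in standard and -0.67 in limited medium. Without cultures 16, 20 and 24 these differences were -0.23, -0.90 and -0.57.

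The other cluster of Ep400 did not follow the brighter one. Its control arrays averaged 8.84 ± 0.29 (SD, n = 6) in standard and 8.57 ± 0.26 in limited medium, and its undernourished arrays 8.72 ± 0.22 and 8.60 ± 0.16. Its maternal diet difference was 0.03 in limited medium and -0.04 over culture means, so the value given for Ep400 holds for 1 of its 2 clusters. Over the 12 culture means the Pearson r between the clusters was -0.20. The brighter cluster was instead close to genes of small nucleolar and Cajal body RNAs, which guide the chemical modification of ribosomal and spliceosomal RNA. This set of 79 genes was chosen after the values were seen. Its median r with the brighter cluster was 0.81 over 12 culture means, 0.82 over the 6 control and 0.76 over the 6 undernourished cultures, whereas the median over all genes was -0.04. With the other cluster the median r was -0.23 over all 12 cultures, -0.19 over the control and -0.77 over the undernourished cultures, and over all genes -0.03. The RefSeq gene table (GRCm38.p6) lists 5 genes overlapping Ep400, and the deposited files do not name their own genome build. Of these, 1 is a small nucleolar RNA gene, and the rest are small nuclear RNA, microRNA and pseudogene entries. No small nucleolar RNA gene overlaps the other 9 genes. Whether probes of the brighter cluster read any of these RNAs was not tested.

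**Figure D3:**
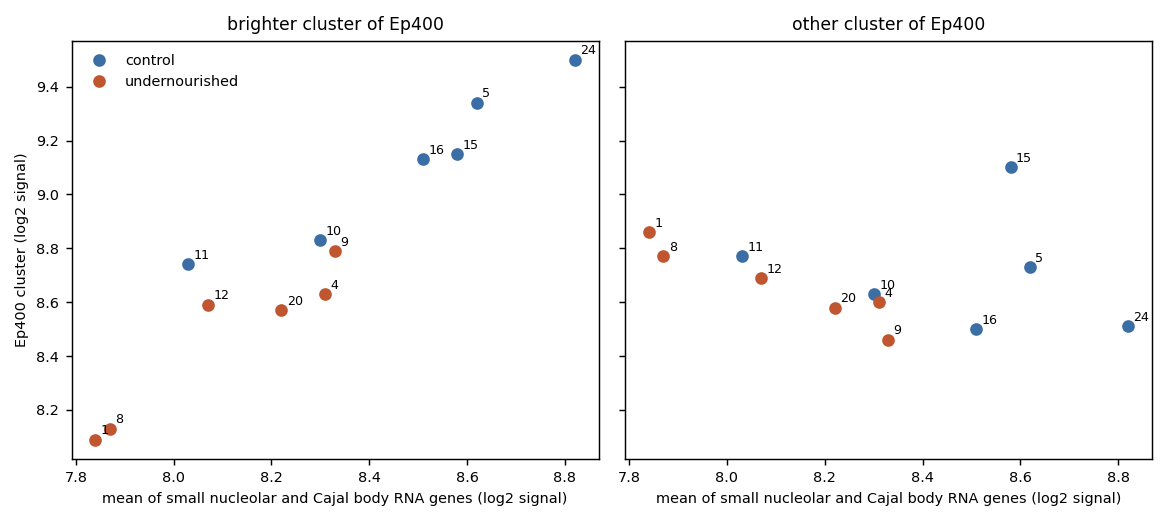
Log2 signal of the brighter (left) and the other (right) Ep400 cluster against the mean log2 signal of 79 small nucleolar and Cajal body RNA genes, each point the mean of both arrays of a culture number, numbered by culture. On the left, culture 1 is lowest on both axes (7.84 and 8.09) and culture 24 highest (8.82 and 9.50), and on the right the other cluster is lower where the small RNA mean is higher among most undernourished cultures, from 8.86 in culture 1 to 8.46 in culture 9.

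Lmo7 encodes a protein with LIM and PDZ domains that sits at cell junctions and shuttles to the nucleus, where in mouse it binds emerin. In standard medium its control arrays ran from 9.86 to 10.47 (median 10.24) and its undernourished arrays from 9.64 to 10.37 (median 9.89). In limited medium the control arrays ran from 9.85 to 10.25 (median 9.99) and the undernourished arrays from 9.14 to 9.72 (median 9.48). The ranges overlapped in standard medium, where undernourished culture 12 reached 10.37, and did not overlap in limited medium, nor did the culture means, which ran from 9.88 to 10.28 in controls and from 9.60 to 9.80 in undernourished cultures. The difference was -0.27 ± 0.12 in standard medium, -0.53 ± 0.12 in limited medium and -0.40 ± 0.07 over culture means, the smallest unadjusted p of all genes in that last comparison but an adjusted p of 0.707. Without each culture in turn the culture-mean difference lay between -0.45 and -0.37, and without cultures 16, 20 and 24 the differences were -0.27, -0.51 and -0.39.

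Cdsn encodes corneodesmosin, an adhesion protein of the cornified layer of skin and the hair follicle. Its control arrays ran from 5.94 to 6.92 (median 6.35) in standard medium and from 5.95 to 6.50 (median 6.09) in limited medium. Its undernourished arrays ran from 6.11 to 7.13 (median 6.25) in standard medium and from 6.46 to 7.80 (median 7.35) in limited medium. In 5 of the 6 undernourished arrays in limited medium the level was 7.08 or above, and the other array, culture 20 at 6.46, lay within the control range. The difference was -0.03 ± 0.20 in standard medium and 1.08 ± 0.20 in limited medium, a 2.12-fold difference with the smallest p of all genes in that comparison and an adjusted p of 0.316. With array weights in limma the limited-medium difference was 1.20 with an adjusted p of 0.027, and without culture 20 it was 1.24 with an adjusted p of 0.00954, so both settings changed the call; over the other alternatives the adjusted p lay between 0.0998 and 1. Neither call is a test, because the same contrast chose the gene. Culture 20 was also the undernourished array nearest the controls there. Without cultures 16, 20 and 24 the limited-medium difference was 1.26. The standard-medium difference ran from -0.18 to 0.07 when 1 culture was left out, and was 0.06 without those 3. The 9 keratinocyte markers averaged between 5.68 and 5.97 in the 12 cultures, and the cornified-layer genes, 13 besides Cdsn, had a median maternal diet difference of 0.02 in limited medium, with 0 called.

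Tppp3 encodes a tubulin polymerization-promoting protein that in mouse also marks tendon sheath cells. In controls Tppp3 ran from 8.70 to 9.89 (median 9.18) in standard and from 9.41 to 9.96 (median 9.70) in limited medium. In undernourished arrays it ran from 8.13 to 9.71 (median 8.86) and from 8.15 to 9.80 (median 9.06). The ranges overlapped in both media, and culture 1 had the highest undernourished level in limited medium. The difference was -0.36 ± 0.24, -0.73 ± 0.24 and -0.54 ± 0.13 in standard medium, limited medium and culture means. Without culture 1 the limited-medium difference was -0.89, and without culture 9 it was -0.56. The standard-medium difference was -0.21 without undernourished culture 4, -0.23 without control culture 24 and -0.17 without cultures 16, 20 and 24, and without these 3 the others were -0.81 and -0.49. The mean of 6 tenocyte markers lay between 5.72 and 5.86 in the 4 groups. These markers were uneven, with Scx averaging 9.64 over all arrays (8.74 to 10.7) and the others between 4.06 and 5.47. The part of tendon cells in the Tppp3 difference was not tested.

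Sipa1l2 encodes a GTPase-activating protein for Rap, a switch in adhesion and neuronal signalling. Control arrays of Sipa1l2 ran from 7.96 to 8.34 (median 8.07) in standard and from 7.91 to 8.28 (median 8.13) in limited medium. Undernourished arrays of this gene ran from 7.83 to 8.26 (median 7.94) and from 7.54 to 7.91 (median 7.72). The highest undernourished array and the lowest control array met at 7.91 in limited medium, and the culture means were apart, from 8.00 to 8.27 in controls and from 7.72 to 7.96 in undernourished cultures. The difference was -0.12 ± 0.09 in standard medium, -0.39 ± 0.09 in limited medium and -0.25 ± 0.07 over culture means, with a residual SD of 0.15, at the 19.6th percentile of all genes. In standard medium it was -0.07 without control culture 11, and without cultures 16, 20 and 24 the differences were -0.15, -0.38 and -0.27.

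Sytl2 encodes a synaptotagmin-like effector of the GTPase Rab27 that tethers vesicles to the plasma membrane. For Sytl2 the control arrays ran from 9.71 to 10.01 (median 9.79) in standard and from 9.85 to 10.06 (median 10.01) in limited medium. For the undernourished arrays the range was 9.55 to 10.31 (median 10.15) in standard and 9.82 to 10.88 (median 10.57) in limited medium. Culture 20, with the highest glial markers, had the lowest undernourished values in both media, 9.55 and 9.82, and without it every undernourished array in limited medium lay at 10.45 or above. The difference was 0.21 ± 0.14 in standard medium, 0.52 ± 0.14 in limited medium and 0.37 ± 0.12 over culture means. In limited medium it was 0.66 without culture 20, with an adjusted p of 0.00575 by limma. That call hangs on leaving out the undernourished culture nearest the controls. It is no test, because the same contrast chose the gene. Without cultures 16, 20 and 24 the differences were 0.28, 0.65 and 0.46.

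Grhpr encodes glyoxylate and hydroxypyruvate reductase, an enzyme that removes glyoxylate. Grhpr in control arrays ran from 8.50 to 9.05 (median 8.73) in standard and from 8.46 to 9.06 (median 8.86) in limited medium. Grhpr in undernourished arrays ran from 8.28 to 8.72 (median 8.40) and from 7.93 to 8.69 (median 8.29). Control culture 15, at 8.46, and undernourished cultures 20 and 4, at 8.69 and 8.58, made the ranges overlap in limited medium. The difference was -0.34 ± 0.13, -0.50 ± 0.13 and -0.42 ± 0.09 in standard medium, limited medium and culture means, and without cultures 16, 20 and 24 it was -0.21, -0.56 and -0.39.

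Slc22a23 encodes a transporter-like protein of the organic ion transporter family whose substrate is not known. Its control arrays ran from 7.71 to 8.44 (median 8.35) in standard and from 7.64 to 8.28 (median 7.93) in limited medium. Its undernourished arrays ran from 7.66 to 9.17 (median 8.35) and from 8.44 to 9.40 (median 8.51). All undernourished arrays lay above all control arrays in limited medium. The difference was 0.21 ± 0.20 in standard medium, 0.79 ± 0.20 in limited medium, a ratio of 1.73, and 0.50 ± 0.15 over culture means. Culture 20, with the highest glial and high fibroblast markers, had the highest mean, 9.28. Without it the differences were 0.05, 0.66 and 0.36, and without cultures 16, 20 and 24 they were -0.05, 0.66 and 0.31; the part of the other cell types was not tested. In standard medium it was also 0.11 without control culture 24 and 0.36 without undernourished culture 9.

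The effect of the medium, averaged over both maternal diets, was not used to choose the genes and could be tested. Its p-values share an estimate of spread with the maternal diet contrasts of the same fit, so they are not wholly free of the choice. Lmo7 fell in limited medium by 0.30 ± 0.09 on the log2 scale (SE; limma, adjusted p = 0.0328), and Lmo4 rose by 0.41 ± 0.12 (adjusted p = 0.0452), a ratio of 1.33. These 2 of 10 genes compare with 1517 of 22180 genes called in all, 6.84%, of which 790 (3.56%) were higher and 727 (3.28%) lower in limited medium. In 9 of 12 cultures Lmo7 had its lower value in limited medium, and in 10 of 12 Lmo4 had its higher value there. Lmo4 did not pass with quantile normalization (adjusted p = 0.0575) or with the culture number as a fixed replicate block. Leaving out a single culture could end either call. Lmo7 lost its call without control culture 5 (adjusted p = 0.098), 10 (0.0795) or 11 (0.061) or undernourished culture 4 (0.0768), 9 (0.0666) or 12 (0.102). Lmo4 lost its call without control culture 5 (adjusted p = 0.142), 10 (0.089), 11 (0.0658), 15 (0.0618) or 24 (0.0947) or undernourished culture 1 (0.0757), 4 (0.124), 9 (0.0935) or 12 (0.117).

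The other 8 genes did not pass in the main fit, which has no replicate block. On its brighter cluster Ep400 was 0.57 ± 0.19 higher in limited medium (adjusted p = 0.0725). Sytl2 was 0.29 ± 0.10 higher (adjusted p = 0.0704), and each was higher in 11 of 12 cultures. The other Ep400 cluster averaged lower in limited than in standard medium. It went from 8.84 to 8.57 in control and from 8.72 to 8.60 in undernourished arrays. With the mean of both clusters the Ep400 difference was 0.19 (limma, adjusted p = 0.203). The exception for the brighter Ep400 cluster was undernourished culture 9, where limited minus standard was -1.49. Without that culture the difference was 0.76 with an adjusted p of 0.00435. That call hangs on leaving out the culture that ran opposite to the others. Sytl2 passed without undernourished culture 20 (0.31, adjusted p = 0.00483). Sytl2 and Ep400 also passed with the filter on dim genes (adjusted p = 0.0438 and 0.0459) and with array weights (0.0423 and 0.0297). With the culture number as a fixed replicate block Sytl2 passed and Lmo4 did not, as given with the processing below. Cdsn differed by 0.31 ± 0.14 (adjusted p = 0.216), Tppp3 by 0.29 ± 0.17 (0.361), Pbx3 by 0.18 ± 0.10 (0.346) and Sipa1l2 by -0.11 ± 0.06 (0.369). Slc22a23 and Grhpr were near 0, at 0.04 ± 0.14 (0.925) and -0.0033 ± 0.09 (0.99).

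The response to the medium within each maternal diet is given as a description, because it combines contrasts that chose the genes. For Cdsn, limited minus standard was 0.86 ± 0.20 in undernourished and -0.25 ± 0.20 in control cultures, and it was above 0 in 5 of 6 undernourished and 2 of 6 control cultures. For Slc22a23 it was 0.33 ± 0.20 and -0.26 ± 0.20, above 0 in 5 and 1 cultures. For Sipa1l2 it was -0.24 ± 0.09 and 0.03 ± 0.09, above 0 in 0 and 4 cultures, and for Pbx3 -0.01 ± 0.14 and 0.36 ± 0.14.

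**Figure D4:**
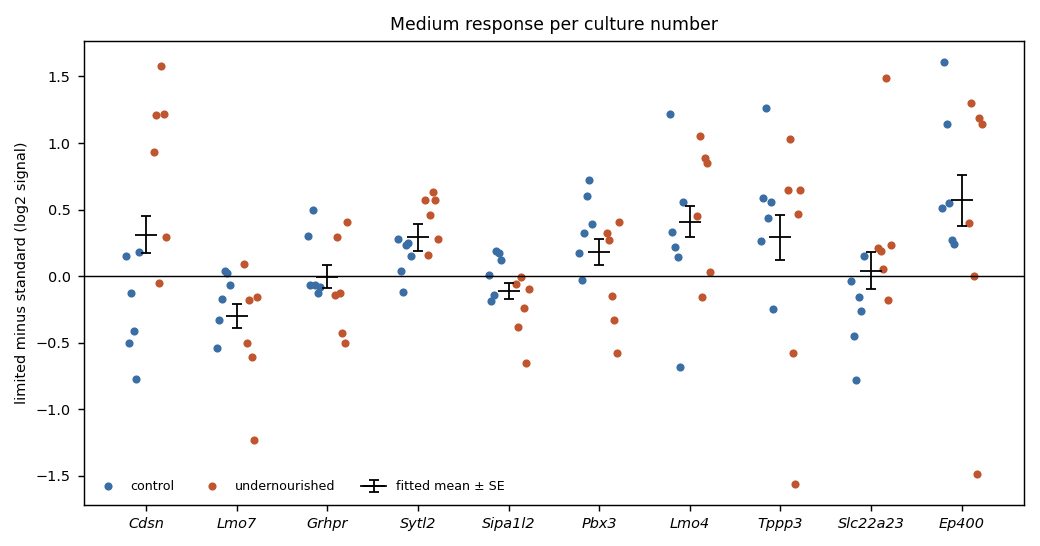
Limited minus standard log2 signal of each gene, 1 point per culture number, blue for control and orange for undernourished, with the fitted mean over both maternal diets and its SE in black. Ep400, on its brighter cluster, is above 0 in 11 of 12 cultures, with undernourished culture 9 at -1.49.

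The family members and partners of the 10 genes were read from 10 lists, which held 122 measured genes other than the 10. In the medium effect 3 of the 122 rose and 2 fell, against 3.56% and 3.28% of all genes, with a median difference of 0.02 against 0.01 over all genes. Of the subunits of the TIP60 complex, in which Ep400 works, the scaffold Trrap fell by 0.42 ± 0.10 (adjusted p = 0.00854) and the ATPase Ruvbl2 rose by 0.22 ± 0.07 (0.0397), and 11 of 13 did not pass. Of 17 genes on the list of LIM proteins of actin structures and junctions, which also holds the Lmo7 partner emerin, the focal adhesion protein Lpp fell by 0.72 (adjusted p = 0.000248) and the muscle LIM protein Fhl3 rose by 0.50 (0.0126). Of 14 other genes of the Rap switch, which are Rap GTPases, their exchange factors and GTPase-activating proteins, the GTPase-activating protein Rap1gap rose by 0.48 (0.0194). On the other 7 lists no gene besides the 10 passed: LMO, LDB and LIM-homeodomain genes, PBX and MEIS genes, Rab27 and its effectors, glyoxylate enzymes, regulators of microtubule stability, organic ion transporters and cornified-layer genes.

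For maternal diet 0 of the 122 genes were called by limma. At an unadjusted p under 0.05 by limma, 1 of the 122 was found in standard medium, 4 in limited medium and 1 over culture means. Among all 22180 genes the shares were 3.14%, 5.44% and 3.57%. In limited medium these were Pdlim4, a PDZ and LIM protein related to Lmo7 (-0.89 ± 0.24), and Pbx2, a paralog of Pbx3 (-0.31 ± 0.12). The others were Rapgef5, on the Rap list with Sipa1l2 (0.21 ± 0.10), and Slc22a15, on the list of Slc22a23 (-0.33 ± 0.16). Pdlim4 and Pbx2 had the direction of their member, and Rapgef5 and Slc22a15 the opposite one. The median difference over the 122 genes was -0.0018 in limited medium and -0.01 over culture means, against 0.0024 and 0.01 over all genes.

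Genes most alike in their levels to each of the 10 were found by Pearson r over the 12 culture means, among genes whose mean was at least 6.02, the median of all genes; each mean shares its 2 arrays across genes, and these r values describe the set without a test. Both maternal diets were pooled, so a shared maternal diet difference can raise r, and r within a diet was not computed here. Lmo7 was most like Pbx3 (r = 0.87), the single case in which the closest gene was itself one of the 10, and the connexin gene Gja5 (0.85). Lmo7 and Pbx3 were both chosen for a maternal diet difference, which was -0.40 and -0.37 over culture means, so nothing is read from their r. Cdsn was most like Mterf3 and Ghitm, both of mitochondria (0.90 each), Sytl2 like the importin gene Kpna1 (0.94) and the pyruvate dehydrogenase gene Pdha1 (0.93), and Lmo4 like Mtbp (0.93) and the mitochondrial chaperone Hspa9 (0.92). The brighter cluster of Ep400 was most like Eif4a1 (0.96), a translation helicase, and the noncoding RNA gene Zfas1 (0.95). This is the cluster that was close to the small RNA genes above, and the other Ep400 cluster was not compared here. Tppp3 was most like Usp13 (0.86) and Pdlim4 (0.84), Grhpr like Isy1 (0.87) and Slc16a13 (0.85), and Slc22a23 like Zmiz1 (0.88) and Srrm4 (0.87). Pbx3 was most like Bag1 (0.88) and Bok (0.87), and Sipa1l2 like Zbtb17 and Rabepk (0.87 each).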

How the data were processed

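Biotin-labelled RNA (WT PLUS labelling, per the labels) was read on 24 single-colour arrays. The deposited table holds log2 signal per transcript cluster, made by the authors with RMA in Affymetrix Expression Console, per the submitters' processing notes; the sources used here do not give tool versions, genome build or the base of the logarithm, and log2 was read from the range of 1.69 to 14.13. Array medians were 5.60 to 5.81, and no pair of arrays was identical. Detection calls were not used. Precision is limited by how many arrays there are.

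Of 41345 clusters, 23521 had exactly 1 gene symbol, updated through a RefSeq gene table (GRCm38.p6; 23328 matched), 1814 had several and 16010 are unnamed here. The brightest cluster per gene left 22180 genes. Limma 3.58.1 (R 4.3.3; lmFit and eBayes) was fitted to all 24 arrays in 4 groups, and to culture means for maternal diet over both media, two-sided, with Benjamini-Hochberg adjustment over all genes and a threshold of 0.05. The fit was tested on simulated data. The medium contrast is orthogonal to the maternal diet contrasts in this balanced design, but shares their estimate of spread.

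The 10 genes, the gene lists, the marker lists and the alternatives were chosen with earlier results of these data known. The text names all 10 genes, up to 4 called genes of each list in the medium effect, list genes where a list is described, and for each of the 10 genes the 2 others with the highest r, passing over model, clone, small RNA and receptor symbols. Alternatives were quantile normalization, a filter on dim genes, array weights, the mean of a gene's clusters, culture blocks, the title number as a covariate and leaving out cultures.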

Additional observations from a re-analysis of the deposited data

Results flagged for a closer look

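In 3 of 40 groups of 6 arrays, 10 genes in 4 groups, the highest or lowest array stood apart from the rest by Dixon's criterion at the 95% level, which chance meets in about 1 group in 20. All 3 lay in undernourished arrays in standard medium. Ep400 was 9.54 in culture 9, and the nearest of the other 5 arrays was 8.13. Grhpr was 8.72 in the same culture, and the nearest was 8.44. Cdsn was 7.13 in culture 8, and the nearest was 6.43.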

How the results depend on the processing

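Of 553 recomputed maternal diet differences of the 10 genes, 551 moved by less than the gene's residual SD between arrays. The other 2 were those of the second Ep400 cluster, 0.03 in limited medium and -0.04 over culture means. This limit is wide for a difference of group means, so the count is no evidence of stability. Among the 551 were sign changes in standard medium. Without cultures 16, 20 and 24, Slc22a23 went from 0.21 to -0.05 and Cdsn from -0.03 to 0.06. The calls gained by Cdsn and Sytl2 in limited medium are also among them. Of 191 recomputed medium effects, 152 kept direction and call, 17 lost a call, 10 gained one and 12 changed sign. The sign changed for Ep400 on its other cluster (-0.20), for Slc22a23 without cultures 16, 20 and 24 (-0.0027; chosen after seeing the data, as were the random block for the medium effect and the other Ep400 cluster), for Slc22a23 without 1 culture at a time (-0.079 to 0.090) and for Grhpr likewise (-0.053 to 0.038); none of these was called. Lmo4 lost its call with quantile normalization (adjusted p = 0.0575). Of the 10 genes, 2 were called in the medium effect, 1 with quantile normalization, 4 with the filter on dim genes, with array weights and with a random block, and 0 to 3 without 1 culture at a time. Genes called numbered 1517, and 991 to 1603 without 1 culture at a time. For maternal diet in limited medium, 1 gene, Cdsn, was called with array weights and 0 to 2 without 1 culture at a time. The 2 were Cdsn and Sytl2 without undernourished culture 20, and the cause was not tested. These calls are no test of the 2 genes, because the same contrast chose them. Arrays with the same culture number deviated together, with r over 0.1, in 10 of 12 cultures, from -0.05 in culture 9 to 0.56, and 10 of 12 correlated best with their own number. This hints at pairing for those 10, but cultures 9 and 12 did not show it and the labels do not state it, so the main test has no block. The main calls, with Lmo4 called and Sytl2 not, are those of this fit without a block. With the culture number as a fixed replicate block 2597 genes were called and with a random one 2426; under the fixed block Lmo4 had an adjusted p of 0.0545 and Sytl2 of 0.00378.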

Other observations

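The 79 small nucleolar and Cajal body RNA genes, a set chosen after the values were seen, had a median maternal diet difference of -0.31 in standard medium, -0.50 in limited medium and -0.41 over culture means, and 75 of 79 (94.9%) lay lower in undernourished culture means, against 47.0% of all genes. In limited against standard medium 7 of the 79 rose and 0 fell, against 3.56% and 3.28% of all genes, with a median difference of 0.43. By limma 0 of them were called for maternal diet in limited medium, and 29 of 79 had an unadjusted p under 0.05, against 5.44% of all genes. Genes measured on the same arrays are not independent.

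Irs2, insulin receptor substrate 2, is not among the 10 genes although its p for maternal diet ranked 9 in limited medium (0.57 ± 0.14) and 3 over culture means (0.41 ± 0.08). By the same ranks Lmo4 was 270 in limited medium and 14 over culture means, and Sytl2 was 16 and 119.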
